A study of Homo sapiens with 12 samples.

Results

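The genes described here are 31 human genes of the endoplasmic reticulum (ER), its chaperones and folding enzymes and the stress sensors that control them. They were chosen by name as a gene module, with earlier results of these data known, and were matched by symbol. All 31 were found among the 40649 genes counted and among the 19268 that passed the filter on low counts. By role they were 3 sensors and transducers (ATF6, ERN1, XBP1), 9 chaperones of the HSP70 and HSP90 families with their partners (HSPA5, HSP90B1, HYOU1, DNAJB9, DNAJB11, DNAJC3, SDF2L1, MANF, CRELD2), 2 lectin chaperones (CALR, CANX), 6 disulfide isomerases and oxidases (P4HB, PDIA3, PDIA4, PDIA6, ERO1A, ERO1B), 3 parts of the translocon (SEC61A1, SEC61B, SSR1) and 8 genes of ER-associated degradation (HERPUD1, SEL1L, SYVN1, EDEM1, DERL1, DERL2, DERL3, OS9).

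Secreted and membrane proteins enter the ER through the translocon, fold there with the help of chaperones, gain disulfide bonds and sugar chains, and leave for the Golgi, while chains that fail to fold are returned to the cytosol and degraded. When unfolded chains build up, the sensors IRE1 (encoded by ERN1), ATF6 and PERK (encoded by EIF2AK3) switch on the unfolded protein response, in which the transcription factors XBP1 and ATF6 raise the genes of chaperones and of degradation and PERK slows translation. In proximal tubule cells of the kidney, which carry a heavy load of membrane transporters, this response is known from ischaemic, toxic and oxidative injury.

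RNA was sequenced in bulk from HK-2, an immortalised line of human proximal tubule epithelial cells, in 12 libraries of 3 groups with 4 libraries each. The labels name this line, while their extraction text speaks of kidney tissue. The ShNC libraries have the genotype ShNC, which all cells without the knockdown share, and the treatment control. The H2O2 libraries have the same genotype and received 150 µM hydrogen peroxide, an oxidant, over 48 h. The libraries labelled YH have the genotype Yap1 knockdown and received the same oxidant. YAP1 drives transcription at the end of the Hippo pathway, and the series concerns its knockdown in tubular cell senescence under oxidative stress. Knockdown cells without oxidant were not analysed here, so the knockdown can be compared with its control under H2O2 only. The labels do not say how the knockdown was made or whether each library had its own culture, so a p-value here reflects the spread among libraries, which may be technical.

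YAP1 itself was at 136, 130, 140 and 124 CPM (a gene's counts relative to the scaled library total) in ShNC libraries 1 to 4, at 155, 151, 156 and 164 in H2O2 and at 131, 135, 111 and 136 in YH. The YH libraries were all below the H2O2 libraries, with a log2 fold change of -0.29 ± 0.07 (SE; edgeR, adjusted p = 0.0035) and an exact two-sided permutation p of 0.0286, the smallest that 8 libraries allow. They overlapped the ShNC libraries (log2 -0.05 ± 0.07, adjusted p = 0.64). The H2O2 libraries were all above the ShNC libraries (log2 0.24 ± 0.07, edgeR adjusted p = 0.010), so that the transcript gives a weak check of the label. Total counts ran from 30789997 to 46582873, and 3 counts, the floor of detection for counting error, came to at most 0.0974 CPM. The share of mitochondrially encoded counts was 4.54% to 5.64% in 10 libraries and stood at 13.86% in ShNC library 4 and 11.34% in YH library 3, which also differed most from the other libraries of their groups. All 8 epithelial and renal lineage markers had a mean of at least 1 CPM, with a sum of 1566 to 1784 CPM in ShNC, 1569 to 1646 in H2O2 and 1539 to 1613 in YH. Of these, PAX8 (427, 244 and 319 CPM on average), EPCAM (185, 141 and 182) and CDH1 (5.81, 1.21 and 3.11) were lower under H2O2 and higher in YH than in H2O2. PAX2 and KRT18 were higher under H2O2, and CDH2 and KRT8 were lower in YH than in H2O2. Of 12 proximal tubule markers 3 had a mean of at least 1 CPM. CUBN, LRP2, SLC22A8, SLC13A1, SLC3A1, AQP1, ANPEP and HNF4A were under 1 CPM in every library. SLC34A1 (1.22, 0.25 and 1.61 CPM on average in ShNC, H2O2 and YH) and MME (35.4, 29.7 and 38.7) were lower under H2O2 and higher in YH than in H2O2. For MME these changes were -0.26 ± 0.10 and 0.39 ± 0.10 on the log2 scale. The genes around MME on its chromosome had median shifts of -0.59 and 0.61 in the same contrasts. Those shifts are larger than the changes of MME, and MME was not examined with them removed. Its calls are therefore not read as particular to MME. GGT1 (3.67, 4.43 and 5.65) was not called. The summed level of 7 fibroblast markers was 110 to 113 CPM in ShNC, 236 to 255 in H2O2 and 143 to 172 in YH, with COL1A2, COL3A1 and PDGFRA under 1 CPM throughout. LUM, COL1A1 and DCN were higher under H2O2 and PDGFRB was lower (log2 -0.72 ± 0.18). Markers of endothelium (at most 0.48 CPM in sum), leukocytes (at most 1.92) and other nephron segments (at most 0.70) were near 0. The part of mitochondrial share and of these markers in the results was not tested, beyond the fit without both libraries of high mitochondrial share that is given beside the counts of calls.

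The promoters are shown because several of these genes share a known element. The ER stress response element (ERSE) is the sequence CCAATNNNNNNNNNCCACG, bound by ATF6 together with NF-Y, and its variant ERSE-II is ATTGGNCCACG. Both were searched on both strands, with the core TGACGTGG of the unfolded protein response element, which XBP1 and ATF6 bind, in the RefSeq promoters of GRCh38.p14, from 250 bases before to 50 after each start. Promoters were in the table for 28 of the 31 genes, with PDIA3, DERL1 and DERL3 the others. An ERSE was found in 8 of 28 members and an ERSE-II in 3 others, together 39.3% of the members. Among all 27305 genes with promoters of the same length, 0.161% held either. The UPRE core was found in HYOU1 alone among the members, overlapping its upstream ERSE-II, and in 0.927% of all genes with a promoter. The element was first defined on promoters of this gene family, so its presence here is a description of the members and no independent finding. The stretches are printed 5′ to 3′ on the strand of the gene, with the element in capitals, and an element on the opposite strand reads CGTGG first and ends in ATTGG or CCAAT.
HSPA5: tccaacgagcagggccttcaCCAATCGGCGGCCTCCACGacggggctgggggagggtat
CALR: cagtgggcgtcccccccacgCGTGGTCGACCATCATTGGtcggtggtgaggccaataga
CRELD2: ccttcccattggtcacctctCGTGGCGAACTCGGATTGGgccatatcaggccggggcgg
ERO1B: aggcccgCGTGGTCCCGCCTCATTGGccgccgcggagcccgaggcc
HYOU1: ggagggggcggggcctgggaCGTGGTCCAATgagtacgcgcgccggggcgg
SDF2L1: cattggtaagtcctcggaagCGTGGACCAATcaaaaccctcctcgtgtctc

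In order, these windows lie at chr9:125241371-125241429 (minus strand), chr19:12938364-12938422 (plus strand), chr22:49918534-49918592 (plus strand), chr1:236282163-236282208 (minus strand), chr11:119057254-119057304 (minus strand) and chr22:21642094-21642144 (plus strand) (GRCh38), outside annotated exons. The HSPA5 element spans bases -66 to -48 relative to the start, the CRELD2 element -80 to -62 and the HYOU1 element shown -79 to -69, whereas those of CALR (-225 to -207), ERO1B (-243 to -225) and SDF2L1 (-188 to -178) are farther upstream. A second ERSE-II of HYOU1 with the same letters lies at -185 to -175. The elements of 5 further members are given without flanks, since the window around each overlaps an annotated exon.
XBP1: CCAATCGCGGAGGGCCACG
HSP90B1, upstream: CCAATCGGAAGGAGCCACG
HSP90B1, downstream: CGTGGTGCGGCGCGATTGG
CANX: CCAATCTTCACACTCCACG
PDIA6: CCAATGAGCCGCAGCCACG
HERPUD1: ATTGGGCCACG

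These 6 elements lie at chr22:28800603-28800621 (minus strand), chr12:103930216-103930234 (plus strand), chr12:103930321-103930339 (plus strand), chr5:179698778-179698796 (plus strand), chr2:10812853-10812871 (minus strand) and chr16:56932025-56932035 (plus strand) (GRCh38). In the libraries labelled YH against H2O2, 8 of the 11 members with an ERSE or ERSE-II were called higher, with a median log2 fold change of 0.59, and 10 of the 17 members with a promoter and no such element, with a median of 0.41, while 22.0% of all genes tested were higher. For H2O2 against ShNC, 6 members with the element were higher and 1 was lower (median 0.27), against 7 higher and 8 lower without it (median 0.04), beside 23.9% higher and 22.6% lower among all genes tested. The differences between members with and without the element were not tested, and no match says only that these letters are not in the window searched.

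The genes were compared in 3 contrasts, each tested with edgeR over all genes, in which a gene with a Benjamini-Hochberg adjusted p under 0.05 was called. Fold changes are on the log2 scale with their standard error (SE), and levels are CPM. Under H2O2 the members split: 13 were higher than in ShNC and 10 were lower, with 8 not called, while 23.9% of all genes tested were higher and 22.6% were lower. The median log2 fold change of the members was 0.04, beside 0.004 over all genes tested. In the libraries labelled YH against H2O2, 19 of the 31 members were higher, against 22.0% of all genes, and 12 were not called. In that contrast 0 members were lower, against 21.0% of all genes, and 0 were lower at an unadjusted p under 0.05 or by DESeq2. The median of the members was 0.51 there, and -0.004 over all genes tested. Against ShNC, the libraries labelled YH had 18 members higher (17.4% of all genes) and 3 lower (15.1% of all genes), with a median of 0.42, beside 0.002 over all genes. Since the contrasts share libraries, their values stand side by side and are not independent of each other. The members were chosen with earlier results of these data known, so their counts beside the shares of all genes are a description. In bulk RNA, fewer cells of a kind and less RNA per cell cannot be told apart.

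Without ShNC library 4 and YH library 3, which have the high mitochondrial shares, the calls rose to 16 higher and 12 lower for H2O2 against ShNC (29.8% and 29.6% of all genes), to 25 higher for YH against H2O2 (28.8%), and to 22 higher and 5 lower for YH against ShNC (24.0% and 22.8%). Scaling by library size alone, in place of TMM factors, gave 14 higher and 7 lower for H2O2 against ShNC, where TMM gave 13 and 10. That scaling moved all genes too, to 27.9% higher and 18.3% lower with a median of 0.09, and the median of the members to 0.13. Many genes of these libraries shifted together along their chromosome, so the fit was repeated with the median shift of the 51 genes centred on each gene removed. It gave 15 members higher and 7 lower for H2O2 against ShNC (22.2% and 20.3% of all genes), 17 higher for YH against H2O2 (19.5%), and 17 higher and 4 lower for YH against ShNC (17.5% and 15.2%). The genes whose calls that fit changed are named beside their values. The median of the members became 0.20, 0.35 and 0.44 in the 3 contrasts. Fits of only the 2 groups compared called DERL2 higher under H2O2 and ERO1A, SDF2L1, SEL1L and SSR1 higher from H2O2 to YH, with adjusted p from 0.021 to 0.049, none of which were called with all 3 groups.

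**Figure D1:**
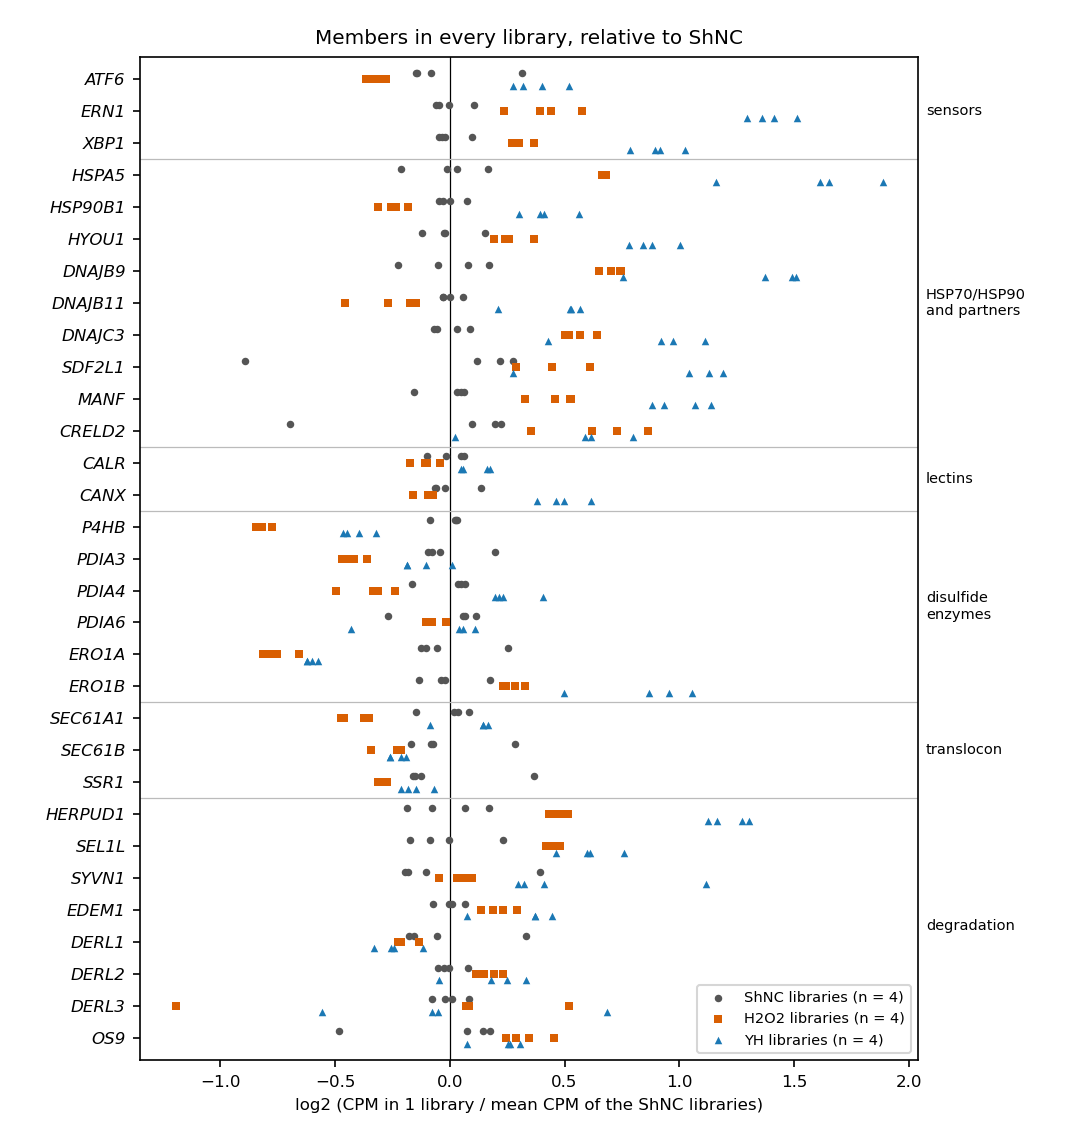
Level of each of the 31 members in each of the 12 libraries, as the log2 ratio of its CPM to the mean of the 4 ShNC libraries (x axis), with 1 row per gene grouped by role. YH libraries lie to the right of the H2O2 libraries in most rows, while H2O2 libraries lie on either side of 0.

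Summed over the 31 members, CPM came to 0.834% to 0.857% of the scaled counts in ShNC, 0.782% to 0.823% in H2O2 and 1.04% to 1.28% in YH. HSPA5 alone held 9.63% to 12.2% of that sum in ShNC, 18.2% to 19.0% in H2O2 and 19.96% to 27.1% in YH. Levels of different genes can be set side by side only per length of transcript, here as CPM per kilobase of annotated exon. On that scale CALR was highest in ShNC at 475, ahead of HSP90B1 at 278 and HSPA5 at 239, and the libraries of these 3 genes did not overlap. P4HB followed at 156, PDIA3 at 145, PDIA4 at 130 and CANX at 117, and neighbours among these 4 overlapped between libraries. At the low end stood ERN1 at 1.47 and DERL3 at 0.249. HSPA5 stood at 380 in H2O2, still under CALR at 442, and at 725 in YH, where CALR was at 514. The libraries of these genes overlapped in YH, with HSPA5 from 533 to 884 and CALR from 492 to 537.

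**Figure D2:**
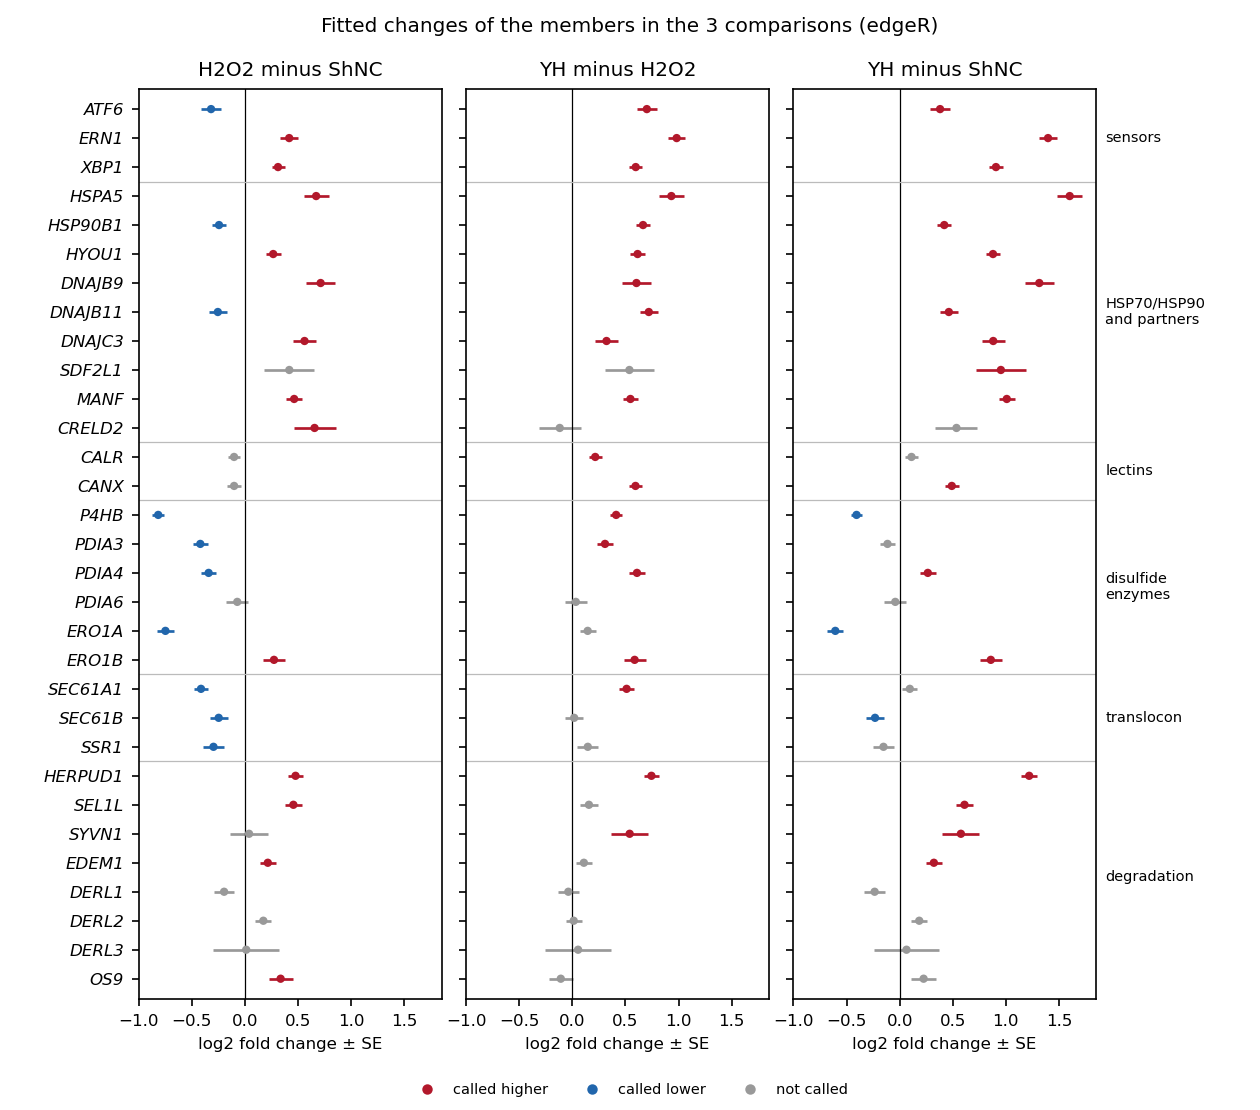
Fitted log2 fold change of each member with its standard error (x axis) in the 3 contrasts, with genes in rows grouped by role and calls in colour. In the middle panel, YH minus H2O2, 19 members are called higher and the values run from -0.12 for CRELD2 to 0.98 for ERN1.

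The 3 sensors and transducers were all called in every contrast: 2 were higher and 1 lower under H2O2 (23.9% and 22.6% of all genes), and all were higher in YH than in H2O2 (22.0%) and than in ShNC (17.4%). ERN1 encodes IRE1, the kinase and ribonuclease that splices XBP1 mRNA. ERN1 had 15.9, 15.3, 17.2 and 15.5 CPM in ShNC libraries 1 to 4, 21.7, 18.8, 23.8 and 20.9 in H2O2 and 40.9, 45.6, 42.5 and 39.2 in YH. Each group lay apart from the others, and ERN1 rose by 0.42 ± 0.08 under H2O2 (adjusted p = 0.00067) and by a further 0.98 ± 0.08 in YH (adjusted p = 1.4e-07). XBP1, the transcription factor made from the spliced mRNA, moved the same way. XBP1 had 87.9, 88.5, 96.2 and 87.0 CPM in ShNC libraries 1 to 4, 111, 108, 111 and 116 in H2O2 and 167, 183, 155 and 170 in YH. The groups did not overlap. XBP1 rose by 0.31 ± 0.06 under H2O2 (adjusted p = 0.00063) and by 0.60 ± 0.06 from H2O2 to YH (adjusted p = 1.3e-06). Counts per gene do not separate spliced from unspliced XBP1, so its splicing was not analysed here. ATF6 encodes the sensor whose cytosolic fragment, freed by proteases of the Golgi, is itself a transcription factor. ATF6 had 77.5, 74.1, 74.3 and 102 CPM in ShNC libraries 1 to 4, 64.8, 66.4, 67.7 and 63.7 in H2O2 and 102, 108, 117 and 99.1 in YH. H2O2 libraries were the lowest, and ShNC library 4 reached the YH libraries. ATF6 changed by -0.32 ± 0.09 under H2O2 (adjusted p = 0.01) and by 0.70 ± 0.09 from H2O2 to YH (adjusted p = 2.0e-05). Without ShNC library 4 the first of these was -0.20 (adjusted p = 0.0087). The 51 genes centred on ATF6 on chromosome 1 shifted by -0.35 and by 0.51 in these contrasts, and with that shift removed ATF6 changed by 0.03 (adjusted p = 0.82) and 0.18 (adjusted p = 0.13), so that neither call was kept. Its difference between YH and ShNC, 0.38 ± 0.09 (adjusted p = 0.0052), then came to 0.21 (adjusted p = 0.084).

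Of the 9 chaperones of the HSP70 and HSP90 families and their partners, 6 were higher and 2 lower under H2O2 (66.7% and 22.2%, beside 23.9% and 22.6% of all genes), 7 were higher in YH than in H2O2 (77.8%, beside 22.0%), and 8 were higher in YH than in ShNC (88.9%, beside 17.4%). HSPA5 encodes BiP, the HSP70 of the ER, which also holds the sensors inactive. HSPA5 had 955, 927, 1048 and 807 CPM in ShNC libraries 1 to 4, 1481, 1496, 1486 and 1477 in H2O2 and 2858, 3453, 2085 and 2941 in YH. The 3 groups were apart, with H2O2 libraries close together and YH library 3 lowest in its group. HSPA5 rose by 0.67 ± 0.12 under H2O2 (adjusted p = 0.00023), by 0.93 ± 0.12 from H2O2 to YH (adjusted p = 1.3e-05) and by 1.60 ± 0.12 from ShNC to YH (adjusted p = 1.1e-07), the last being a 3.03-fold difference. HSP90B1 encodes GRP94, the HSP90 of the ER, which folds integrins and Toll-like receptors. HSP90B1 had 1276, 1263, 1304 and 1373 CPM in ShNC libraries 1 to 4, 1107, 1150, 1051 and 1093 in H2O2 and 1713, 1929, 1606 and 1732 in YH. Here H2O2 libraries lay below and YH libraries above all ShNC libraries. The change was -0.25 ± 0.06 under H2O2 (adjusted p = 0.0051; 0.097 with library sizes alone) and 0.67 ± 0.06 from H2O2 to YH (adjusted p = 6.8e-07). HYOU1 encodes GRP170, which exchanges the nucleotide of BiP. HYOU1 had 131, 131, 148 and 122 CPM in ShNC libraries 1 to 4, 157, 171, 152 and 159 in H2O2 and 245, 266, 228 and 238 in YH. Its groups were apart in the order ShNC, H2O2 and YH. HYOU1 rose by 0.26 ± 0.07 (adjusted p = 0.0052) and then by 0.61 ± 0.07 (adjusted p = 3.7e-06).

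DNAJB9, DNAJB11 and DNAJC3 encode J-domain proteins that deliver clients to BiP and start its ATPase. DNAJB9 had 28.9, 24.9, 27.2 and 22.0 CPM in ShNC libraries 1 to 4, 40.4, 41.9, 43.2 and 43.0 in H2O2 and 66.8, 72.5, 43.4 and 73.3 in YH. DNAJB9, whose product ERdj4 also restrains IRE1, was apart between groups, but YH library 3 was only just above the H2O2 libraries. It rose by 0.71 ± 0.14 under H2O2 (adjusted p = 0.00051) and by 0.60 ± 0.13 from H2O2 to YH (adjusted p = 0.0019). DNAJC3 had 39.1, 36.5, 40.6 and 36.8 CPM in ShNC libraries 1 to 4, 54.2, 59.6, 54.9 and 56.8 in H2O2 and 72.4, 82.7, 51.5 and 75.2 in YH. DNAJC3, also known as p58IPK, overlapped between H2O2 and YH because of YH library 3. It rose by 0.56 ± 0.11 under H2O2 (adjusted p = 0.00056) and by 0.32 ± 0.11 from H2O2 to YH (adjusted p = 0.025). The second call was lost with library sizes alone (adjusted p = 0.12) and on leaving out H2O2 library 1, 3 or 4 or YH library 1, 2 or 4 (adjusted p of 0.069, 0.063, 0.053, 0.057, 0.098 and 0.070, with log2 values from 0.24 to 0.32). DNAJB11 had 70.4, 68.9, 73.1 and 68.9 CPM in ShNC libraries 1 to 4, 63.5, 62.3, 51.2 and 58.4 in H2O2 and 101, 104, 81.2 and 101 in YH. For DNAJB11, or ERdj3, the H2O2 libraries were lowest and the YH libraries highest, with no overlap. It changed by -0.26 ± 0.08 under H2O2 (adjusted p = 0.02) and by 0.72 ± 0.08 from H2O2 to YH (adjusted p = 5.4e-06). The first call was lost without ShNC library 3 (-0.24, adjusted p = 0.055), H2O2 library 3 (-0.19, adjusted p = 0.079) or H2O2 library 4 (-0.25, adjusted p = 0.050), and with library sizes alone (adjusted p = 0.19). The genes around it on chromosome 3 shifted by -0.59 and 0.56, and with that shift removed DNAJB11 was higher under H2O2 (0.33, adjusted p = 0.0077) and its change from H2O2 to YH was 0.16 (adjusted p = 0.17). Of its exon bases 23.2% lie in another gene, so its counts are uncertain.

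MANF, SDF2L1 and CRELD2 are small ER proteins known as targets of the response. MANF encodes a cofactor of BiP that is also secreted. MANF had 54.9, 63.8, 63.2 and 62.5 CPM in ShNC libraries 1 to 4, 87.8, 88.2, 76.8 and 84.0 in H2O2 and 117, 134, 113 and 128 in YH. Its groups did not overlap, and it rose by 0.46 ± 0.07 under H2O2 (adjusted p = 9.9e-05) and by 0.55 ± 0.07 from H2O2 to YH (adjusted p = 2.3e-05). SDF2L1 works with DNAJB11 on BiP clients. SDF2L1 had 13.3, 14.8, 14.3 and 6.61 CPM in ShNC libraries 1 to 4, 16.7, 18.8, 15.0 and 15.0 in H2O2 and 25.3, 28.0, 14.8 and 26.8 in YH. ShNC library 4 and YH library 3 stood far below the others of their groups, and YH library 3 lay just under the lowest H2O2 library. SDF2L1 was called only in YH against ShNC (0.95 ± 0.24, adjusted p = 0.0071), with values of 0.42 ± 0.24 and 0.54 ± 0.23 in the other contrasts (adjusted p = 0.17 and 0.08). Its change from H2O2 to YH was called without YH library 3 (0.71, adjusted p = 0.014), without ShNC library 4 (0.54, adjusted p = 0.014) and by DESeq2 (adjusted p = 0.036). Its value under H2O2 was 0.20 and not called without ShNC library 4, 0.20 and called without ShNC library 4 and YH library 3 (adjusted p = 0.023), and 0.63 and called with the shift of neighbouring genes removed (adjusted p = 0.046). CRELD2 encodes a disulfide-rich protein of the ER and secretory path. CRELD2 had 24.2, 26.0, 26.4 and 13.98 CPM in ShNC libraries 1 to 4, 37.5, 41.2, 28.98 and 34.8 in H2O2 and 34.7, 39.4, 23.0 and 34.1 in YH. The same 2 libraries stood lowest in their groups. CRELD2 rose by 0.65 ± 0.20 under H2O2 (adjusted p = 0.015; 0.077, and not called, with no filter on low counts) and stood at -0.12 ± 0.20 from H2O2 to YH (adjusted p = 0.66). Its difference between YH and ShNC was 0.54 ± 0.20 (adjusted p = 0.054), and it was called without YH library 3 (0.67, adjusted p = 0.013) or ShNC library 3 (0.62, adjusted p = 0.048), by DESeq2 (adjusted p = 0.021), with the replicate block (adjusted p = 0.044) and with the shift removed (0.57, adjusted p = 0.017).

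**Figure D3:**
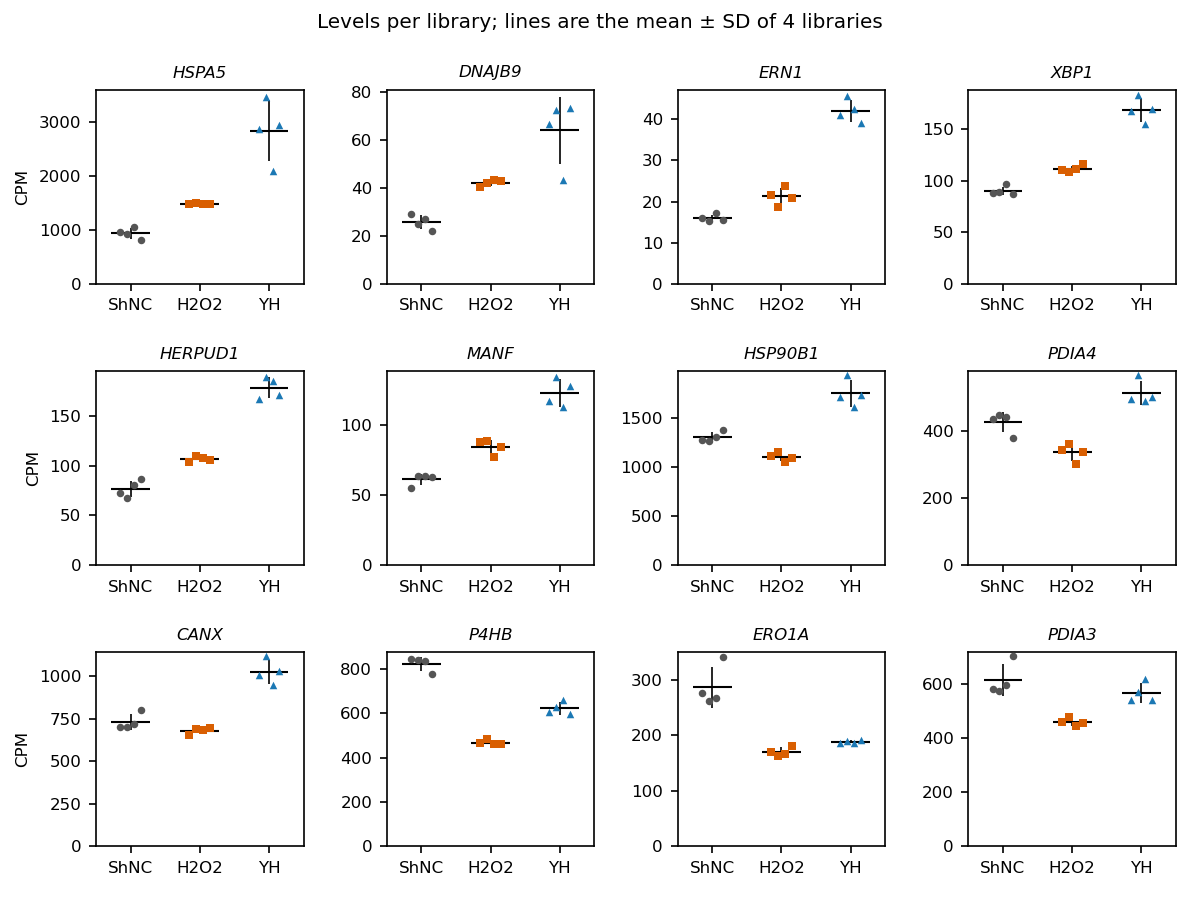
CPM of 12 members in each library (y axis, from 0), with bars for the mean and SD of 4 libraries per group. HSPA5, DNAJB9, ERN1, XBP1, HERPUD1 and MANF are at their highest in YH and lowest in ShNC, HSP90B1, PDIA4 and CANX are lowest in H2O2, and P4HB and ERO1A stay under ShNC in both treated groups.

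The lectin chaperones calreticulin (CALR) and calnexin (CANX) hold glycoproteins that carry a single glucose until they fold. Both were higher in YH than in H2O2, as were 22.0% of all genes. CANX had 697, 699, 720 and 801 CPM in ShNC libraries 1 to 4, 653, 686, 684 and 693 in H2O2 and 1005, 1117, 948 and 1030 in YH. YH libraries of CANX were above all others, and the H2O2 libraries were just under the ShNC libraries. CANX changed by -0.10 ± 0.06 under H2O2 (adjusted p = 0.21) and by 0.59 ± 0.07 from H2O2 to YH (adjusted p = 2.6e-06). CALR had means of 1290 ± 65.7 (SD, n = 4), 1201 ± 44.5 and 1394 ± 65.3 CPM in ShNC, H2O2 and YH, with a change of 0.22 ± 0.06 from H2O2 to YH (adjusted p = 0.0086; 0.12 with library sizes alone). Its value under H2O2 was -0.10 ± 0.06 (adjusted p = 0.17), or -0.14 without ShNC library 4 (adjusted p = 0.025). The 51 genes centred on CALR shifted by 0.32 under H2O2, and with that removed CALR was lower under H2O2 (-0.42, adjusted p = 5.1e-05) and higher by 0.52 from H2O2 to YH (adjusted p = 9.2e-06).

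Of the 6 disulfide isomerases and oxidases, 4 were lower and ERO1B was higher under H2O2, where 22.6% of all genes were lower and 23.9% higher, and 4 were higher in YH than in H2O2, where 22.0% of all genes were. P4HB encodes protein disulfide isomerase, which forms and reshuffles disulfide bonds and is also the beta subunit of collagen prolyl 4-hydroxylase. P4HB had 845, 841, 838 and 778 CPM in ShNC libraries 1 to 4, 468, 482, 463 and 460 in H2O2 and 605, 628, 661 and 598 in YH. Its groups were apart, with YH between H2O2 and ShNC. P4HB changed by -0.82 ± 0.06 under H2O2 (adjusted p = 7.3e-09), by 0.41 ± 0.05 from H2O2 to YH (adjusted p = 1.9e-05) and by -0.41 ± 0.05 from ShNC to YH (adjusted p = 3.9e-05). PDIA4 encodes ERp72, an isomerase found with BiP and GRP94. PDIA4 had 436, 446, 440 and 379 CPM in ShNC libraries 1 to 4, 342, 361, 301 and 337 in H2O2 and 494, 564, 488 and 499 in YH. The H2O2 libraries were lowest and the YH libraries highest. It changed by -0.34 ± 0.07 under H2O2 (adjusted p = 0.0012) and by 0.61 ± 0.07 from H2O2 to YH (adjusted p = 7.2e-06). PDIA3, or ERp57, the isomerase that works with calreticulin and calnexin, had 576 to 706 CPM in ShNC, 444 to 479 in H2O2 and 541 to 621 in YH. It changed by -0.42 ± 0.07 (adjusted p = 0.00017) and 0.31 ± 0.07 (adjusted p = 0.0026; 0.20 with the shift removed, adjusted p = 0.031). PDIA6, or P5, an isomerase that binds BiP, was not called in any contrast, at 303 to 395, 340 to 361 and 271 to 394 CPM, with ShNC library 4 and YH library 3 lowest in their groups. Without both of these libraries PDIA6 was called at -0.16 under H2O2 (adjusted p = 3.6e-05) and at 0.14 from H2O2 to YH (adjusted p = 0.00021). Of its exon bases 25.2% lie in another gene, so its counts are uncertain.

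ERO1A and ERO1B encode the oxidases that recharge protein disulfide isomerase and pass the electrons to oxygen, making hydrogen peroxide in the ER. They differed in direction. ERO1A had 275, 262, 266 and 340 CPM in ShNC libraries 1 to 4, 170, 163, 167 and 181 in H2O2 and 186, 188, 186 and 192 in YH. ShNC libraries were all above the others, and YH libraries just above H2O2 libraries. ERO1A changed by -0.75 ± 0.08 under H2O2 (adjusted p = 8.1e-07), by 0.14 ± 0.08 from H2O2 to YH (adjusted p = 0.14) and by -0.61 ± 0.08 from ShNC to YH (adjusted p = 1.9e-05). The middle value was called without ShNC library 4 (0.14, adjusted p = 0.012) and, at 0.41, with the shift of neighbouring genes removed (adjusted p = 4.3e-05). ERO1B had 19.0, 19.2, 17.8 and 22.0 CPM in ShNC libraries 1 to 4, 22.9, 23.1, 24.5 and 23.8 in H2O2 and 35.6, 40.5, 27.6 and 37.8 in YH. The groups of ERO1B were apart in the order ShNC, H2O2 and YH. It rose by 0.59 ± 0.10 from H2O2 to YH (adjusted p = 0.00028) and by 0.86 ± 0.10 from ShNC to YH (adjusted p = 1.4e-05). Its rise of 0.27 ± 0.10 under H2O2 had an adjusted p of 0.044, and leaving out any 1 of ShNC libraries 1, 2 and 3 (log2 0.26, 0.26 and 0.23), H2O2 libraries 1 to 4 (0.29, 0.28, 0.26 and 0.27) or YH libraries 1 and 4 (0.27 in both) ended that call, with adjusted p from 0.051 to 0.12, as did DESeq2 size factors in edgeR (adjusted p = 0.052) and removing mitochondrially encoded genes (adjusted p = 0.053). With the shift of neighbouring genes on chromosome 1 removed, its rise under H2O2 was 0.63 (adjusted p = 0.00013) and that from H2O2 to YH was 0.20 (adjusted p = 0.14).

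The translocon genes SEC61A1, SEC61B and SSR1 were all lower under H2O2, as were 22.6% of all genes. SEC61A1 encodes the pore through which chains enter the ER. SEC61A1 had 320, 316, 331 and 282 CPM in ShNC libraries 1 to 4, 241, 245, 225 and 226 in H2O2 and 345, 350, 294 and 345 in YH. H2O2 libraries were below all others, and YH overlapped ShNC. SEC61A1 changed by -0.42 ± 0.07 under H2O2 (adjusted p = 0.00014) and by 0.51 ± 0.07 from H2O2 to YH (adjusted p = 2.4e-05). Genes around it on chromosome 3 shifted by -0.59 and 0.56, and with that shift removed its changes turned to 0.18 (adjusted p = 0.04) and -0.06 (adjusted p = 0.54). SEC61B, a small subunit of the pore, had means of 57.4 ± 8.42, 48.3 ± 2.03 and 48.9 ± 1.16 CPM in ShNC, H2O2 and YH. Its changes against ShNC were -0.25 ± 0.09 in H2O2 (adjusted p = 0.025) and -0.23 ± 0.09 in YH (adjusted p = 0.048). Without ShNC library 4, its highest library, these were -0.15 (adjusted p = 0.032) and -0.13 (adjusted p = 0.067). The first was lost without H2O2 library 3 (-0.22, adjusted p = 0.080) or 4 (-0.25, adjusted p = 0.050), with library sizes alone (adjusted p = 0.089) and with the shift removed (-0.13, adjusted p = 0.16). The second was lost on leaving out any 1 library other than ShNC library 2, with log2 values from -0.26 to -0.13 and adjusted p from 0.054 to 0.11, with the replicate block (adjusted p = 0.057) and in the fit of only the 2 groups (adjusted p = 0.098). SSR1, a subunit of the translocon-associated complex, had means of 164 ± 31.6, 133 ± 1.63 and 148 ± 6.51 CPM. It changed by -0.30 ± 0.10 under H2O2 (adjusted p = 0.02), or by -0.16 without ShNC library 4 (adjusted p = 0.0093), and by -0.20 with the shift removed (adjusted p = 0.15). From H2O2 to YH it stood at 0.15 ± 0.10 (adjusted p = 0.25), or 0.14 without ShNC library 4 (adjusted p = 0.010).

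**Figure D4:**
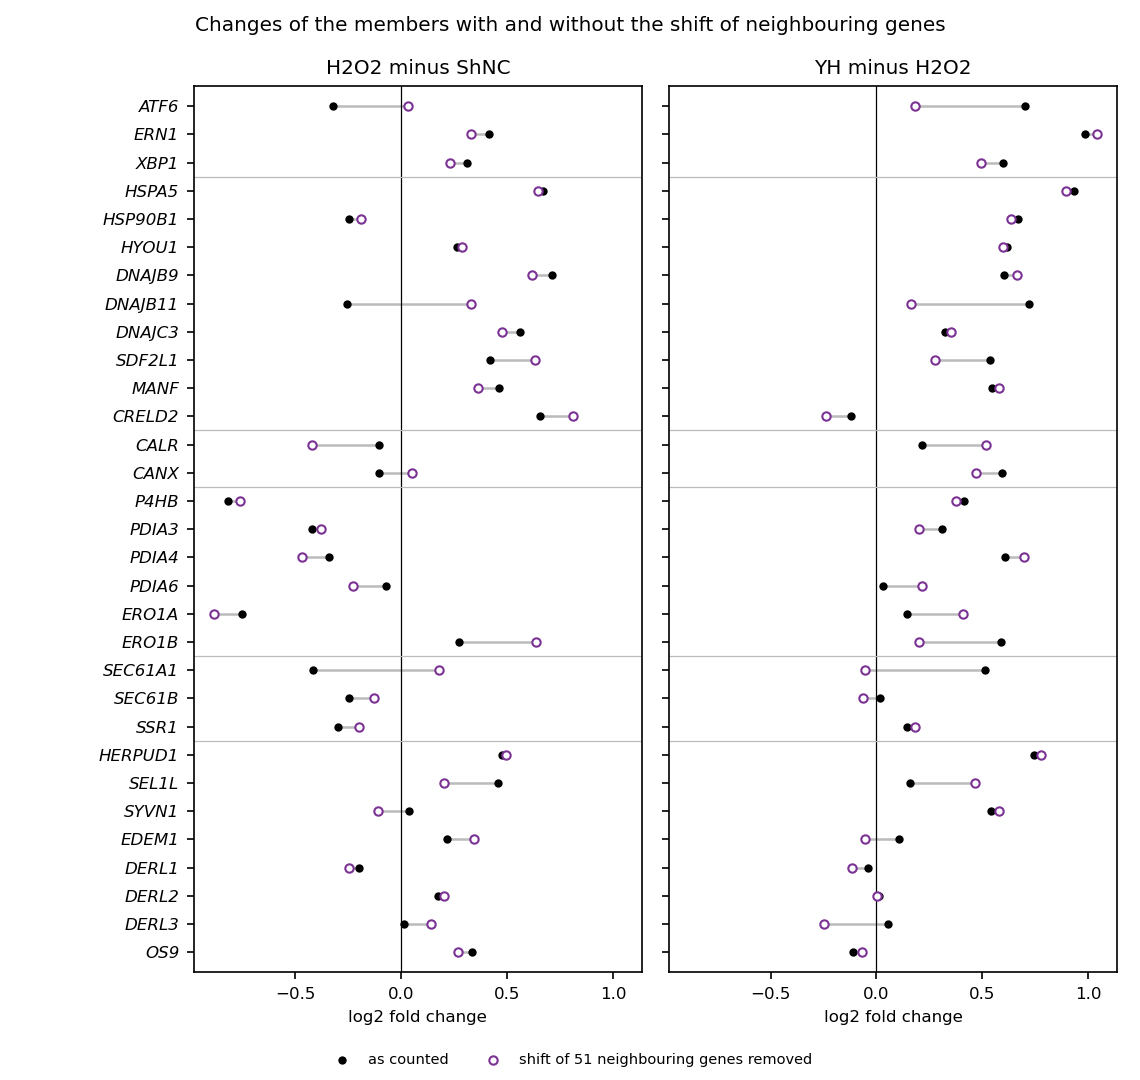
Log2 fold change of each member (x axis) as counted and after the median shift of the 51 genes centred on it was removed, for H2O2 minus ShNC and YH minus H2O2. ATF6, DNAJB11, SEC61A1 and ERO1B move most, and SEC61A1 crosses 0 in both panels.

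Among the 8 genes of ER-associated degradation, 4 were higher under H2O2 (beside 23.9% of all genes), and 2 were higher in YH against H2O2 (25.0%, near the 22.0% of all genes). HERPUD1 encodes a membrane scaffold of the degradation complex. HERPUD1 had 72.7, 67.5, 80.3 and 86.5 CPM in ShNC libraries 1 to 4, 104, 110, 108 and 106 in H2O2 and 168, 190, 186 and 172 in YH. The groups were apart in the order ShNC, H2O2 and YH. It rose by 0.48 ± 0.07 under H2O2 (adjusted p = 7.5e-05) and by 0.74 ± 0.07 from H2O2 to YH (adjusted p = 9.9e-07). SYVN1 encodes HRD1, the ubiquitin ligase of that complex. SYVN1 had 27.0, 27.2, 28.7 and 40.6 CPM in ShNC libraries 1 to 4, 33.0, 32.4, 29.9 and 31.5 in H2O2 and 37.9, 41.0, 67.0 and 38.6 in YH. ShNC library 4 and YH library 3 stood far above the other libraries of their groups. SYVN1 was 0.04 ± 0.17 under H2O2 (adjusted p = 0.88), or 0.19 and not called without ShNC library 4 and 0.19 and called without both of these libraries (adjusted p = 0.002). It rose by 0.54 ± 0.17 from H2O2 to YH (adjusted p = 0.022). That rise was 0.31 without YH library 3 (adjusted p = 0.048) and lost its call without H2O2 library 3 (0.51, adjusted p = 0.055) and with no filter on low counts (adjusted p = 0.10). Against ShNC it was 0.58 ± 0.17 (adjusted p = 0.021), 0.34 without YH library 3 (adjusted p = 0.035), and not called without ShNC library 1 (0.52), 2 (0.52) or 3 (0.54), with adjusted p from 0.054 to 0.066, or with the shift of neighbouring genes removed (0.47, adjusted p = 0.11), with no filter (adjusted p = 0.11) or in the fit of only the 2 groups (adjusted p = 0.053). SEL1L encodes the adaptor that joins HRD1 to its substrates. SEL1L had 113, 107, 120 and 141 CPM in ShNC libraries 1 to 4, 161, 165, 168 and 166 in H2O2 and 183, 203, 165 and 182 in YH. H2O2 libraries were above all ShNC libraries and overlapped YH. SEL1L rose by 0.45 ± 0.08 under H2O2 (adjusted p = 0.00028) and stood at 0.16 ± 0.08 from H2O2 to YH (adjusted p = 0.14). That last value was called without YH library 3 (0.20, adjusted p = 0.049) or ShNC library 4 (0.16, adjusted p = 0.036). With the shift of neighbouring genes removed the changes of SEL1L were 0.20 (adjusted p = 0.048) and 0.47 (adjusted p = 0.00017).

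EDEM1 and OS9 recognise trimmed sugar chains on misfolded glycoproteins, and the derlins DERL1, DERL2 and DERL3 belong to the channel that returns chains to the cytosol. EDEM1 had 52.1 to 57.3 CPM in ShNC, 60.2 to 67.1 in H2O2 and 57.6 to 74.5 in YH. It was higher under H2O2 (0.21 ± 0.08, adjusted p = 0.031) and in YH against ShNC (0.32 ± 0.08, adjusted p = 0.0042). The first call was lost without ShNC library 2 (0.18) or 3 (0.22) or H2O2 library 1 (0.19), 2 (0.21) or 4 (0.22), with adjusted p from 0.051 to 0.093. The rise was 0.34 with the shift removed (adjusted p = 0.0026). The call under H2O2 was lost with no filter on low counts as well (adjusted p = 0.057). From H2O2 to YH, EDEM1 stood at 0.11 ± 0.08 (adjusted p = 0.27), at 0.18 and called without YH library 3 (adjusted p = 0.015), and at -0.05 with the shift removed (adjusted p = 0.63). OS9 had 98.6 to 156, 164 to 189 and 145 to 170 CPM in ShNC, H2O2 and YH, with ShNC library 4 lowest. It rose by 0.33 ± 0.11 under H2O2 (adjusted p = 0.025), by 0.20 without ShNC library 4 (adjusted p = 0.016), and was not called without H2O2 library 2 (0.33, adjusted p = 0.051) or 3 (0.30, adjusted p = 0.073) or with the shift removed (0.27, adjusted p = 0.11). DERL1, DERL2 and DERL3 were not called in the 3 contrasts by edgeR with all libraries, TMM factors, the filter on low counts and no shift removed. With library sizes alone DERL2 was higher under H2O2 (adjusted p = 0.030) and DERL1 lower in YH against ShNC (adjusted p = 0.049). With no filter on low counts DERL1 was lower in YH against ShNC as well (-0.24, edgeR adjusted p = 0.047). DERL1 had means of 71.0 ± 12.4, 61.9 ± 1.87 and 60.3 ± 3.76 CPM. Its difference between YH and ShNC was -0.24 ± 0.10 (adjusted p = 0.073), and it was called without ShNC library 1 (-0.29, adjusted p = 0.043), ShNC library 2 (-0.29, adjusted p = 0.048) or YH library 3 (-0.28, adjusted p = 0.045). With the shift of neighbouring genes removed it was lower under H2O2 (-0.25, adjusted p = 0.04) and in YH against ShNC (-0.36, adjusted p = 0.006). DERL2 had 53.1 ± 2.13, 59.8 ± 2.15 and 60.4 ± 6.63 CPM. It was called higher under H2O2 without ShNC library 4 (0.19, adjusted p = 0.038) or YH library 3 (0.17, adjusted p = 0.014), and in YH against ShNC without the same libraries (0.20, adjusted p = 0.037, and 0.26, adjusted p = 0.0029). DERL3 was near 1 CPM in each group (0.943 ± 0.0438, 0.939 ± 0.390 and 0.990 ± 0.371), and 77.0% of its exon bases lie in another gene, so its counts are uncertain.

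Set side by side, 9 members were higher in H2O2 than in ShNC, in YH than in H2O2 and in YH than in ShNC: ERN1, XBP1, HSPA5, HYOU1, DNAJB9, DNAJC3, MANF, ERO1B and HERPUD1. A further 4 were lower under H2O2 and in YH higher than in both other groups (ATF6, HSP90B1, DNAJB11, PDIA4). P4HB was lower under H2O2, higher in YH than in H2O2 and lower in YH than in ShNC. PDIA3 and SEC61A1 were lower under H2O2, higher in YH than in H2O2 and not called between YH and ShNC, and CANX, SYVN1 and CALR were called higher in YH than in H2O2 with no call under H2O2. SEL1L and EDEM1 were higher in both treated groups than in ShNC, CRELD2 and OS9 in H2O2 alone and SDF2L1 in YH alone. ERO1A and SEC61B were lower in both treated groups, and SSR1 in H2O2. These patterns count calls, and a gene called in 1 contrast and not in another is not shown to differ between them. Several patterns changed with the shift of neighbouring genes removed. ATF6 then had no call, DNAJB11 and SEC61A1 were higher under H2O2, and ERO1B was not called from H2O2 to YH, among other changes given above. How many of all genes show each pattern was not counted, so the patterns are not read as particular to the members.

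The rest of the pathway was read from 10 lists with 172 tested genes, and their counts are given beside the shares of all genes called: 23.9% higher and 22.6% lower under H2O2, 22.0% and 21.0% for YH against H2O2, and 17.4% and 15.1% for YH against ShNC. Over all lists, 34 genes (19.8%) were higher and 50 (29.1%) lower under H2O2 (median log2 -0.04), 47 (27.3%) were higher and 31 (18.0%) lower in YH against H2O2 (median 0.05), and 33 (19.2%) were higher and 33 lower in YH against ShNC (median -0.001). These shares are not read as a result about the lists, which were not tested against other genes. In the PERK branch and integrated stress response, 5 of 14 genes (35.7%) were higher and 5 lower under H2O2, and 7 were higher and 1 (7.14%) lower in YH against H2O2 (median 0.26). ATF3, a stress-induced transcription factor, rose under H2O2 from 68.6 ± 8.75 to 167 ± 16.6 CPM (log2 1.29 ± 0.10, edgeR adjusted p = 4.4e-08), and CEBPG, a partner of ATF4, rose by 0.68 ± 0.11 (0.34 with the shift of neighbouring genes removed). DDIT4, an inhibitor of mTOR signalling, was lower by -0.83 ± 0.17, and 41.2% of its exon sequence overlaps another gene. PPP1R15B, which directs the phosphatase of eIF2α, was lower under H2O2 (-0.63 ± 0.06) and higher in YH than in H2O2 (0.83 ± 0.06), with -0.39 and 0.52 once the shift was removed. DDIT3, which encodes CHOP, stood at 47.8 ± 1.70 CPM in H2O2 and 102 ± 14.0 in YH (log2 1.09 ± 0.12, adjusted p = 4.6e-06), and 39.6% of its exon bases lie in another gene. EIF2AK3, the third sensor, and ATF4 were added after their values were seen: EIF2AK3 changed by -0.45 ± 0.07 under H2O2 (adjusted p = 7.4e-05) and 0.11 ± 0.07 from H2O2 to YH (adjusted p = 0.22), and ATF4 by -0.23 ± 0.06 (adjusted p = 0.004) and 0.28 ± 0.06 (adjusted p = 0.0013).

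Of 12 other sensors, proteases and regulators, 2 (16.7%) were higher and 3 (25.0%) lower under H2O2, and 5 (41.7%) were higher and 2 (16.7%) lower in YH against H2O2, beside 23.9%, 22.6%, 22.0% and 21.0% of all genes. FICD, the enzyme that attaches AMP to BiP, rose from 7.57 ± 0.919 to 13.7 ± 0.942 CPM from H2O2 to YH (log2 0.85 ± 0.11, adjusted p = 1.8e-05). CREB3L1, a relative of ATF6, was higher under H2O2 (0.39 ± 0.12). MBTPS1 and MBTPS2, the proteases that cut ATF6, were lower under H2O2 (-0.57 ± 0.06 and -0.32 ± 0.07), and MBTPS1 was higher in YH than in H2O2 (0.46 ± 0.06). With the shift of neighbouring genes removed, both calls of MBTPS1 were lost (-0.05 and 0.07). Among 17 other disulfide isomerases and redox proteins, 1 (5.88%) was higher and 7 (41.2%) were lower under H2O2, and 7 (41.2%) were higher and 3 (17.6%) lower in YH against H2O2. PDIA5 fell from 47.4 ± 6.05 to 19.2 ± 1.29 CPM under H2O2 (log2 -1.31 ± 0.09, adjusted p = 1.0e-08; -0.62 with the shift removed) and was at 33.0 ± 1.84 in YH (0.79 ± 0.09, and 0.18 with adjusted p = 0.13 once the shift was removed). QSOX1, a sulfhydryl oxidase, was also lower under H2O2 (-0.79 ± 0.08, and -0.43 without the shift), and TMX4 was higher (0.27 ± 0.07). ERP44, which retains ERO1 in the early secretory path, was higher in YH (0.41 ± 0.10, and 0.25 without the shift). The membrane thioredoxins TMX1 (-0.43 ± 0.11) and TMX3 (-0.41 ± 0.08) were lower. The call of TMX1 was lost with the shift removed (-0.12, adjusted p = 0.41).

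**Figure D5:**
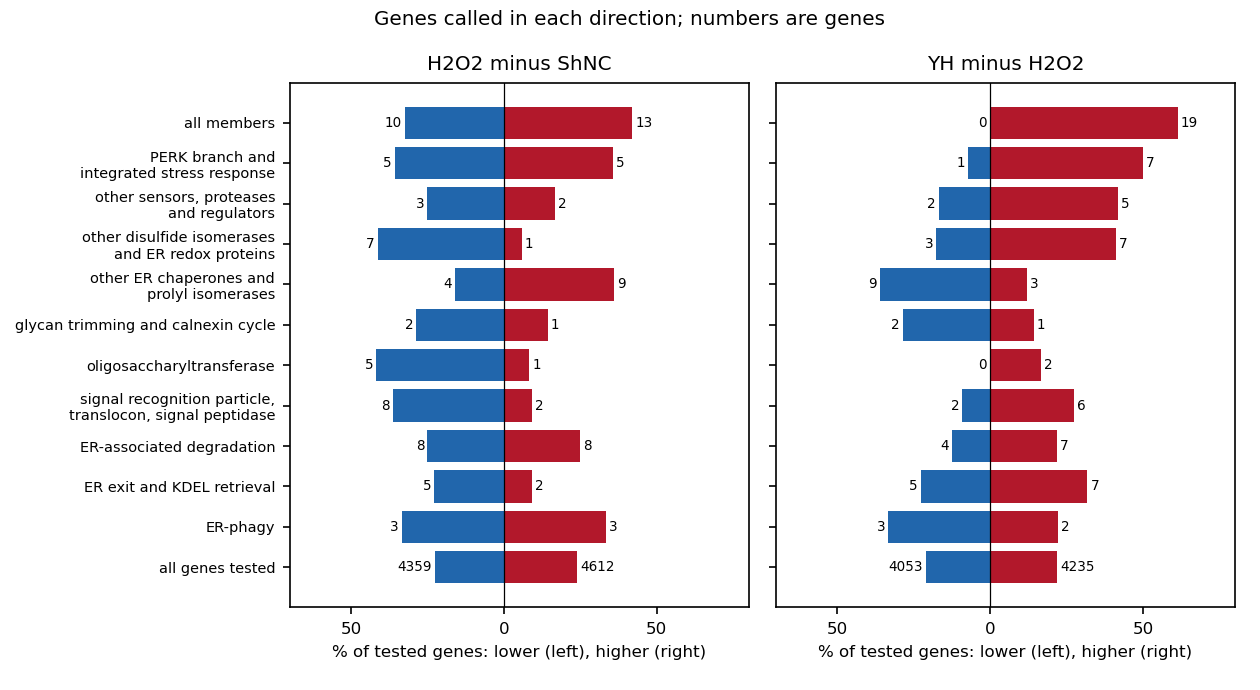
Share of tested genes called lower (left of 0) and higher (right of 0) in the members, in the 10 pathway lists and in all genes tested, for H2O2 minus ShNC and YH minus H2O2, with the number of genes at each bar. In the right panel the members have 19 genes higher and 0 lower, while the other ER chaperones and prolyl isomerases have 3 higher and 9 lower.

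Of the 25 other ER chaperones, cochaperones and prolyl isomerases, 9 (36.0%) were higher and 4 lower under H2O2, beside 23.9% and 22.6% of all genes. In YH against H2O2, 3 were higher and 9 (36.0%) lower (median -0.16), beside 22.0% and 21.0% of all genes, and their difference from the members was not tested. The prolyl isomerase FKBP7 rose under H2O2 from 6.71 ± 0.758 to 17.6 ± 1.47 CPM (log2 1.39 ± 0.12, adjusted p = 1.9e-07) and was at 8.05 ± 1.43 in YH (-1.13 ± 0.12). RCN3, a calcium-binding protein of the secretory path, rose under H2O2 (1.61 ± 0.15), and CNPY4 was lower in YH than in H2O2 (-1.13 ± 0.14). SIL1, a nucleotide exchange factor of BiP, and DNAJC1, a J protein, were higher in YH (0.60 ± 0.15, with 0.42 and adjusted p = 0.051 without the shift, and 0.34 ± 0.07). FKBP9 (-0.35 ± 0.08) and RCN1 (-0.32 ± 0.07) were lower under H2O2, and the call of RCN1 was lost with the shift removed (-0.20, adjusted p = 0.062). In the glycan trimming and calnexin cycle, CLGN, a calnexin relative best known from testis, rose from 6.63 ± 0.640 to 14.2 ± 0.523 CPM under H2O2 (1.10 ± 0.10) and was at 6.60 ± 0.711 in YH (-1.11 ± 0.10). GANAB, the catalytic subunit of glucosidase II, did the opposite (-0.52 ± 0.05 and 0.39 ± 0.05). MOGS, glucosidase I, was lower in YH (-0.34 ± 0.08), a call that was lost with the shift removed (-0.13, adjusted p = 0.22). Of 12 subunits of oligosaccharyltransferase, which attaches the sugar chain, 1 (8.33%) was higher and 5 (41.7%) were lower under H2O2. RPN1 stood at 387 ± 11.2, 231 ± 5.91 and 429 ± 16.7 CPM in ShNC, H2O2 and YH (-0.74 ± 0.05 and 0.89 ± 0.05), with -0.17 (adjusted p = 0.051) and 0.30 (adjusted p = 0.0024) once the shift was removed. RPN2 was lower under H2O2 (-0.65 ± 0.12), MAGT1 was higher (0.19 ± 0.07, and 0.32 without the shift), and STT3B was higher in YH (0.41 ± 0.06). The call of MAGT1 was lost without ShNC library 1 (0.19), 2 (0.16) or 3 (0.19) or H2O2 library 1 (0.18), 2 (0.19) or 4 (0.18), with adjusted p from 0.068 to 0.10, and with no filter on low counts (adjusted p = 0.073).

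In the list of the signal recognition particle, translocon and signal peptidase, 2 of 22 genes (9.09%) were higher and 8 (36.4%) lower under H2O2, and 6 (27.3%) were higher and 2 (9.09%) lower in YH against H2O2, beside 23.9%, 22.6%, 22.0% and 21.0% of all genes. SSR3 and SSR2, partners of SSR1, were lower under H2O2 (-0.92 ± 0.07 and -0.80 ± 0.10) and higher in YH than in H2O2 (0.70 ± 0.07 and 0.75 ± 0.10), values that were -0.40, -0.30, 0.13 (adjusted p = 0.13) and 0.21 without the shift. SPCS3, a subunit of the signal peptidase, moved the opposite way, with 232 ± 6.21, 304 ± 12.7 and 159 ± 19.6 CPM in ShNC, H2O2 and YH (0.39 ± 0.08 and -0.94 ± 0.08, the first being 0.67 without the shift). SEC63, which recruits BiP to the pore, was higher under H2O2 (0.31 ± 0.07), and TRAM2 was lower in YH (-0.30 ± 0.08, and -0.18 with adjusted p = 0.051 without the shift). Of 32 further genes of ER-associated degradation, 8 (25.0%) were higher and 8 lower under H2O2, near the shares of all genes, and 7 (21.9%) were higher and 4 (12.5%) lower in YH against H2O2, beside 22.0% and 21.0% of all genes. The ubiquitin-conjugating enzyme UBE2G2 and the ligase MARCHF6 were higher under H2O2 (0.70 ± 0.05 and 0.60 ± 0.06, the latter 0.32 without the shift), and EDEM2 and ERLIN1 were lower (-0.47 ± 0.09 and -0.46 ± 0.06, the former -0.31 without the shift). BAG6 and RNF185 were higher in YH (0.40 ± 0.07 and 0.29 ± 0.09, with 0.21 for BAG6 without the shift and 0.19 for RNF185 without ShNC library 4 and YH library 3), and UBE2G2 and JKAMP were lower (-0.62 ± 0.05 and -0.45 ± 0.11). Both calls of UBE2G2 and those of RNF185 and JKAMP were lost with the shift removed. In ER exit and KDEL retrieval, 2 of 22 (9.09%) were higher and 5 (22.7%) lower under H2O2, and 7 (31.8%) were higher and 5 (22.7%) lower in YH against H2O2. The cargo receptor partner MCFD2 was at 156 ± 12.8, 264 ± 2.57 and 194 ± 3.79 CPM in ShNC, H2O2 and YH (0.76 ± 0.06 and -0.44 ± 0.06), while its partner LMAN1 was lower under H2O2 (-0.36 ± 0.05), as was KDELR2, a receptor that returns escaped chaperones (-0.40 ± 0.07). PREB was higher under H2O2 (0.24 ± 0.07), SEC24A and SEC31A of the COPII coat were higher in YH (0.59 ± 0.10 and 0.42 ± 0.15), and SAR1A was lower (-0.21 ± 0.06, and -0.39 without the shift). The calls of PREB and SEC31A were lost with the shift removed, and that of SEC31A also without H2O2 library 1 (0.41), 2 (0.41) or 4 (0.43) or YH library 3 (0.28), with adjusted p from 0.062 to 0.10, and with no filter on low counts (adjusted p = 0.13). Of 9 ER-phagy genes, 3 (33.3%) were higher and 3 lower under H2O2, and 2 (22.2%) were higher and 3 (33.3%) lower in YH against H2O2. The receptor CCPG1 (0.85 ± 0.13) and UFL1 (0.54 ± 0.08) were higher under H2O2, and RTN3 (-0.29 ± 0.05) and ATL3 (-0.26 ± 0.08) were lower. CCPG1 was then lower in YH than in H2O2 (-0.65 ± 0.13), as was CALCOCO1 (-0.47 ± 0.07), and RTN3 was higher (0.17 ± 0.05). Of the exon bases of CCPG1 39.8% lie in another gene, and ATL3 and the rise of RTN3 were not called with the shift removed or with library sizes alone (adjusted p = 0.13 and 0.12). The rise of RTN3 was also lost without H2O2 library 3 (0.15, adjusted p = 0.057) or 4 (0.16, adjusted p = 0.061) and with no filter on low counts (adjusted p = 0.084). Of the 67 calls given for these lists, 18 were lost with the shift removed, and 0 changed sign under it.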

How the data were processed

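Bulk RNA was sequenced in 12 libraries of 3 groups of 4. The deposited values are raw counts per gene made by the authors, with HISAT2, featureCounts (Subread), DESeq2 and GRCh38 (hg38) named per the submitters' processing notes, with no versions and no strand setting stated. Each table held 40649 genes, 0 rows that named no gene and 2049 genes with no count in any library.

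Counts were analysed with edgeR 4.0.16 in R 4.3.3: filterByExpr left 19268 genes, TMM factors set library sizes, and a robust quasi-likelihood fit of 3 group means over 12 libraries gave p-values, adjusted by Benjamini-Hochberg over all genes tested. CPM use TMM-scaled sizes. Totals were 30789997 to 46582873. Taken over genes together, the spread between libraries of a group exceeded counting error, with a chi-square per degree of freedom of at least 2.85 in each pair. For single genes, such as DERL3, it need not. Alternatives were DESeq2 1.42.0, its size factors, library sizes alone, no filter, 2-group fits, mitochondrially encoded genes removed, an offset that removes the median shift of the 51 genes centred on each gene, a replicate block, each library left out, and ShNC library 4 and YH library 3 both left out.

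Members and lists were chosen with earlier results of these data known. Of the members, 21 are given per library: those called in at least 1 contrast with a log2 fold change of at least 0.5 and a mean of at least 5 CPM. From each list the text names, for H2O2 minus ShNC and for YH minus H2O2, at most 2 genes per direction: those called, at 5 CPM or more on average and without overlap between groups, that changed most. Exon lengths, positions and overlaps are from GENCODE v29, and promoters from RefSeq. SLC22A6 and protein sequences were not analysed here.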

Additional observations from a re-analysis of the deposited data

Results flagged for a closer look

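Within a group of 4 libraries, 1 library stood apart from the other 3 by Dixon's criterion in 16 of 93 combinations of member and group, where chance gives about 1 in 20, or 4.65. ShNC library 4 was that library in 8 cases and YH library 3 in 4, and these are the libraries with a mitochondrial share of 13.86% and 11.34%. The part of that share was not tested. All 93 combinations come from the same 12 libraries, and the rate over all genes was not computed. The excess over 4.65 is therefore not read as particular to the members.

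In ShNC library 4, ATF6 was high at 102 CPM (the others 74.1 to 77.5), PDIA3 at 706 (576 to 597), ERO1A at 340 (262 to 275), SSR1 at 211 (147 to 150.1) and SYVN1 at 40.6 (27.0 to 28.7). In the same library P4HB was low at 778 CPM (838 to 845), PDIA4 at 379 (436 to 446) and PDIA6 at 303 (380 to 395). In YH library 3, DNAJB11 was low at 81.2 CPM (the others 101 to 104), PDIA6 at 271 (375 to 394) and SEC61A1 at 294 (345 to 350.0), while SYVN1 was high at 67.0 (37.9 to 41.0). The 4 remaining cases were spread over libraries. XBP1 was high in ShNC library 3 at 96.2 CPM (87.0 to 88.5), MANF was low in ShNC library 1 at 54.9 (62.5 to 63.8), PDIA4 was high in YH library 2 at 564 (488 to 499) and SEC61B was low in H2O2 library 3 at 45.3 (48.9 to 49.6).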

How the results depend on the processing

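Among member values called before its removal, taking out the shift of neighbouring genes turned the sign of 4. These were ATF6 (0.0313), DNAJB11 (0.33) and SEC61A1 (0.18) for H2O2 minus ShNC, and SEC61A1 (-0.0559) for YH minus H2O2. Some values that were not called, such as those of CANX and SYVN1 for H2O2 minus ShNC, changed sign too and are not counted here. Of the 4 that turned, ATF6 and the value of SEC61A1 for YH minus H2O2 were no longer called. Apart from those 4, removing the shift ended 8 calls and gave 7. The median of the members for H2O2 minus ShNC was 0.20 with that shift removed, 0.13 with library sizes alone, 0.19 without ShNC library 4 and YH library 3, and -0.0218 to 0.191 on leaving out 1 library at a time, against 0.04 with all libraries. With library sizes alone the median over all genes was itself 0.09, against 0.004. For YH minus H2O2 the median was 0.35 with the shift removed. At an adjusted p under 0.01, 6 members were lower for H2O2 minus ShNC, and the share of all genes at that threshold was not computed. At 0.05 and without both libraries of high mitochondrial share, 5 were lower for YH minus ShNC, beside 22.8% of all genes. Beyond the smaller sets of libraries and the stricter threshold, the cause was not tested. Correlations of same-numbered libraries, taken about their group means, ran from -0.52 to 0.53, and 4 of 12 were best with their own number. ShNC library 4 and YH library 3 differed most from their groups and carry different numbers. The correlations therefore cannot say whether replicate numbers pair the libraries. With the replicate block, members higher and lower were 13 and 10, 19 and 0, and 19 and 2 in the 3 contrasts, and 2 of 93 calls changed. The shares of all genes there were 23.1% and 21.2%, 20.5% and 19.9%, and 16.1% and 13.6%. Depth limits DERL3, at about 1 CPM, most.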
